A study of Mus musculus with 10 samples.

Results

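The genes described here are 10 receptor tyrosine kinase genes that are often altered or active in glioma: Egfr, Erbb2, Erbb3 and Erbb4 of the EGF receptor family, Fgfr1, Fgfr2 and Fgfr3 of the FGF receptors, the PDGF receptor genes Pdgfra and Pdgfrb, and Kit, the stem cell factor receptor. They were chosen by name, with earlier results of these data known, and are 10 of the 21101 genes in the expression table. RNA-seq had been performed on cultured mouse neural stem cells. All lines, controls included, were p53-null and carried a transduced IDH1(R132H), a mutant isocitrate dehydrogenase found in lower-grade glioma. Control NSC#1 and Control NSC#2 were the 2 controls, and mA16d#4, mA19d#4 and mA19d#7 were 3 lines deleted of Atrx, a chromatin remodeller gene that is often lost in the same tumours. Each line gave 1 library in proliferation medium, with EGF and basic FGF at 20 ng/ml each, and 1 library after 8 days in neural basal medium with B27 supplement and no growth factors, called differentiation medium below. The 4 groups were therefore control proliferation (n = 2), control differentiation (n = 2), Atrx-deleted proliferation (n = 3) and Atrx-deleted differentiation (n = 3). How Atrx was deleted, the age of the animals and whether each line is 1 clone were not stated in the labels. The labels mA19d#4 and mA19d#7 share a stem, and whether these lines have a common origin is not stated either.

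Receptor tyrosine kinases are cell surface proteins that bind a growth factor outside the cell, pair up and phosphorylate tyrosines on their inner side. Adaptor proteins dock there and pass the signal to the RAS-ERK and PI3K-AKT cascades. In the developing brain EGF and FGF receptors sustain neural stem cells, and PDGF receptor alpha marks oligodendrocyte precursors and drives their division. Both media differ in the ligands of the receptors measured here, since EGF and basic FGF were present in one and withdrawn in the other.

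Levels are given in TPM, a measure of transcript abundance corrected for transcript length, so that levels of different genes can be compared. The deposited values had been forced to the same distribution in every library: each library held the same sorted values, with 14232 genes at 1 TPM or more. Read depth cannot be recovered from such values and is unknown. Differences are given on the scale of log2(TPM + 1), which understates the change of genes near or below 1 TPM, and were tested with limma over 15660 genes that reached 1 TPM in at least 2 libraries. A gene is called changed at an adjusted p of 0.05 or less (Benjamini-Hochberg over all tested genes). The p-values rest on 1 spread per gene, pooled over the 4 groups, with all 10 libraries counted as separate. For the medium comparisons this is not the spread of the response within lines. Each line was cultured once per medium. The control and the Atrx-deleted lines are different lines, so that line and genotype cannot be told apart. The sample codes of the control libraries also share one prefix and those of the Atrx-deleted libraries another. What the prefix marks is not stated, and any difference in handling behind it cannot be told apart from genotype.

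Atrx, the deleted gene, was at 163 and 149 TPM in the control lines in proliferation medium and at 128 and 127 TPM in differentiation medium. The 3 deleted lines had 71.6, 42.8 and 74.0 TPM in proliferation medium and 54.4, 47.2 and 54.0 TPM in differentiation medium. The log2 difference was -1.34 and -1.28 (adjusted p = 0.039 and 0.0204, limma), and a gene-level value does not show which part of the transcript is missing. Across the tested genes the libraries of a group resembled one another with Spearman rho from 0.915 to 0.983. The library labelled mA19d#7 differentiation stood apart. Its profile was closest to mA16d#4 proliferation (rho = 0.957) and less close to mA19d#7 proliferation, its own line (rho = 0.926). Receptor gene results whose call it changes, and those of over 0.2 on the log2 scale that it moves by over 1.5 times, are also given without it. Markers of cycling cells summed to 621 to 1055 TPM in control proliferation and 99.9 to 103 TPM in control differentiation. The sums were 710 to 1091 and 305 to 709 TPM in the Atrx-deleted lines. In differentiation medium 7 of the 8 markers were called higher than in the controls by the same test, which called 2.89% of all tested genes. The part of these markers in the results below was not tested.

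Of the 10 receptor genes, 9 passed the filter on low values. Egfr was the most abundant of them in every group mean, at 350 ± 9.94 TPM (SD, n = 2) in control proliferation, 277 ± 20.2 (n = 2) in control differentiation, 261 ± 26.3 (n = 3) in Atrx-deleted proliferation and 211 ± 22.9 (n = 3) in Atrx-deleted differentiation. Among the 54 receptor tyrosine kinase genes of the table it ranked 2 by mean level. Fgfr1 ranked 3 and Fgfr3 ranked 6, followed by Erbb4 at 15, Pdgfra at 17, Kit at 18, Erbb2 at 22 and Fgfr2 at 26. Erbb3, which binds neuregulins but has almost no kinase activity of its own and signals through its partners, ranked 35 and reached 1 TPM in 7 of 10 libraries. Pdgfrb, the PDGF receptor of pericytes and other mural cells, ranked 54, with values from 0.0039 to 0.0886 TPM over all libraries, and was not tested. Of a list of 10 mural cell and fibroblast markers, 8 were tested and 0 called in any comparison by limma. Their summed level was 287 to 352 TPM in control proliferation, 194 to 198 TPM in control differentiation, 133 to 191 TPM in Atrx-deleted proliferation and 43.7 to 143 TPM in Atrx-deleted differentiation. Cspg4, which is also a precursor marker, is one of them, and Rgs5 and Abcc9 were below 1 TPM in every library.

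**Figure D1:**
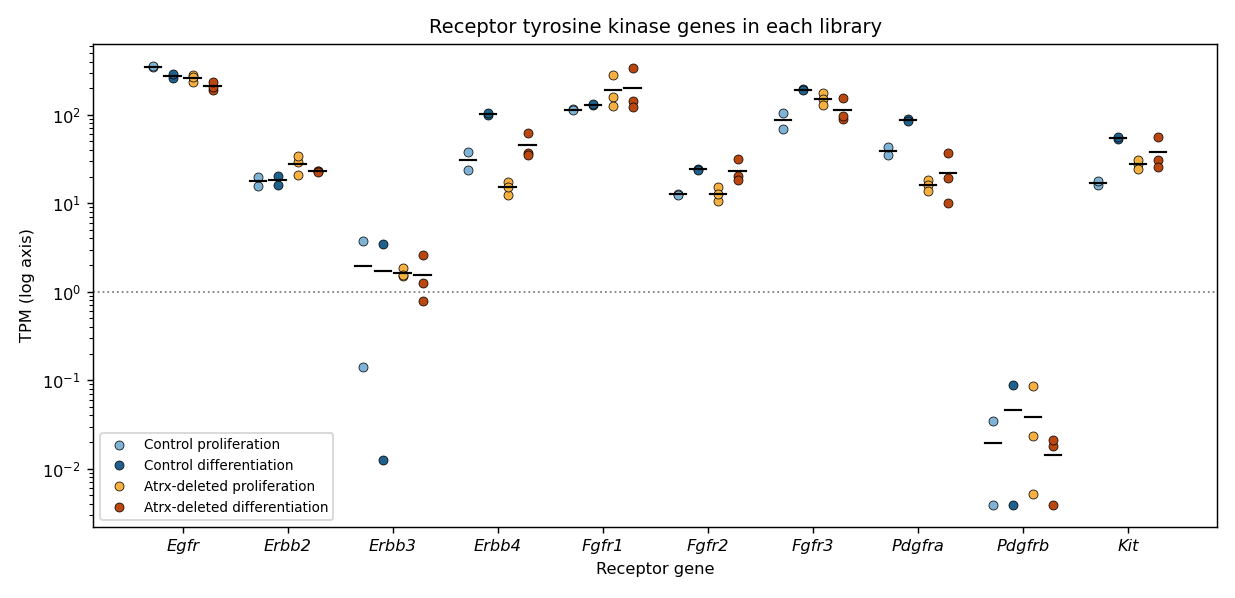
Level of each of the 10 receptor genes in every library, in TPM on a log axis, by group; points are libraries and bars are group means. Egfr, Fgfr1 and Fgfr3 form the top of the scale, Erbb3 lies near 1 TPM and Pdgfrb lies below 0.1 TPM in all libraries.

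The order of the levels differed between groups. In control proliferation it ran Egfr, Fgfr1, Fgfr3, Pdgfra, Erbb4, Erbb2, Kit, Fgfr2, Erbb3 and Pdgfrb, and the libraries of neighbours overlapped for Pdgfra with Erbb4 and for Erbb2 with Kit. In control differentiation Fgfr3 stood above Fgfr1, Erbb4 above Pdgfra and Kit above Fgfr2 and Erbb2, with no overlap between neighbours except Erbb3 and Pdgfrb. In the Atrx-deleted lines the libraries of Egfr overlapped with those of Fgfr1, and those of Fgfr1 with Fgfr3, in both media. Fgfr3 did not overlap with the gene below it in either medium. Erbb2 came next in Atrx-deleted proliferation, overlapping with Kit, and both were above Pdgfra, Erbb4 and Fgfr2. Of these Pdgfra overlapped with Erbb4, and Erbb4 with Fgfr2. In Atrx-deleted differentiation the neighbours among Erbb4, Kit, Fgfr2, Erbb2 and Pdgfra all overlapped. Egfr made up 54.0% and 50.6% of the summed TPM of the 10 genes in the control lines in proliferation medium, and 30.2% and 32.1% in differentiation medium. The summed TPM itself lay between 549 and 905. In the library labelled mA19d#7 differentiation Fgfr1 held the largest share, 42.7%.

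**Figure D2:**
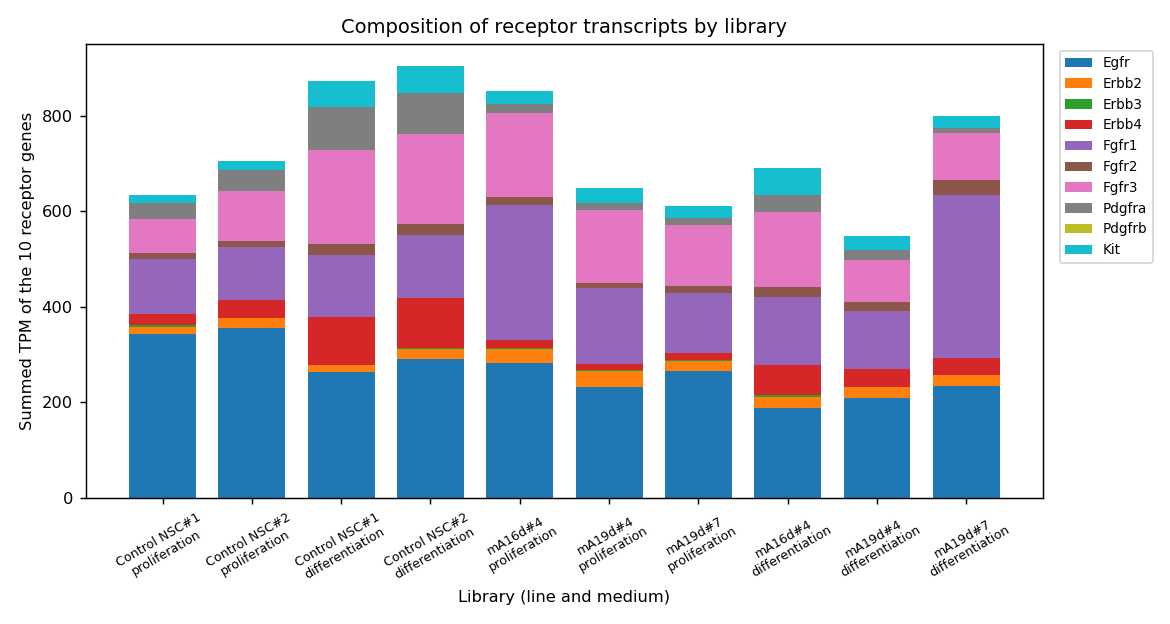
Composition of the summed TPM of the 10 genes by receptor gene, with 1 bar per library. Egfr takes 54.0% and 50.6% in the control proliferation libraries, and Fgfr1 takes 42.7% in the library labelled mA19d#7 differentiation.

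Which receptor genes differed between Atrx-deleted and control lines was asked in each medium. In proliferation medium 0 of the 9 tested receptor genes were called, where 72 of all tested genes (0.46%) were; at an unadjusted p under 0.05 the share of all tested genes was 13.7%, and Erbb4, Fgfr3, Pdgfra, Egfr, Erbb2 and Kit were among them. All Atrx-deleted libraries lay above both control libraries for Erbb2, Fgfr1, Fgfr3 and Kit (17.8% of all tested genes did), and below them for Egfr, Erbb4 and Pdgfra (20.2%). In either direction 7 of the 9 receptor genes were separate, against 38% of all tested genes. In differentiation medium 1 of 9 was called, Pdgfra, which was lower in the Atrx-deleted lines. The share called among all tested genes was 2.89%, and the share called lower was 1.33%. Without overlap, Egfr, Erbb4, Fgfr3 and Pdgfra were lower and Erbb2 was higher in the Atrx-deleted libraries there; 18.1% of all tested genes were lower and 18.2% higher in this way, 36.3% in all. The median difference of the 9 genes was 0.17 in proliferation medium and -0.40 in differentiation medium, beside -0.02 and 0.02 over all tested genes. The smallest exact two-sided permutation p that 2 against 3 libraries allow is 0.1, so a single gene cannot reach 0.05 by that test; Pdgfra was at 0.1 in proliferation and at 0.2 in differentiation medium.

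The change of medium was compared within each genotype. In the control lines 3 of 9 receptor genes rose in differentiation medium, Erbb4, Kit and Fgfr3, and 0 fell; 4.51% of all tested genes were called, 1.95% as higher and 2.56% as lower. In the Atrx-deleted lines 0 of 9 were called by limma, beside 0.083% of all tested genes, and 14.8% of all tested genes had an unadjusted p under 0.05, with Erbb4 and Fgfr2 among the receptor genes. Without the library labelled mA19d#7 differentiation, 348 of all tested genes (2.22%) and 1 receptor gene, Erbb4, were called in the Atrx-deleted lines. In the control lines, whose fit shares the estimate of spread, 9.24% of all tested genes and 5 receptor genes were then called, Pdgfra and Fgfr2 being added. Between genotypes the shares of all tested genes were then 1.59% in proliferation medium and 5.97% in differentiation medium, with 0 and 1 receptor genes called. The median difference of the 9 genes was 0.89 in the control lines and 0.02 in the Atrx-deleted lines, where all tested genes had medians of -0.01 and 0.01. Over single lines, Erbb4, Fgfr2 and Kit were higher in differentiation medium in 5 of 5 lines, as were 11.2% of all tested genes, and Egfr was lower in 5 of 5 lines, as were 10.3%. For Kit the difference in mA19d#4 was only 0.01. Whether the response itself differed between genotypes was tested as an interaction. That test called 0 of the 9 receptor genes and 0.00639% of all tested genes; at an unadjusted p under 0.05, Fgfr3 and Kit were among 7.02% of all tested genes. A change called in the control lines and not in the Atrx-deleted lines is therefore not shown to differ between them.

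**Figure D3:**
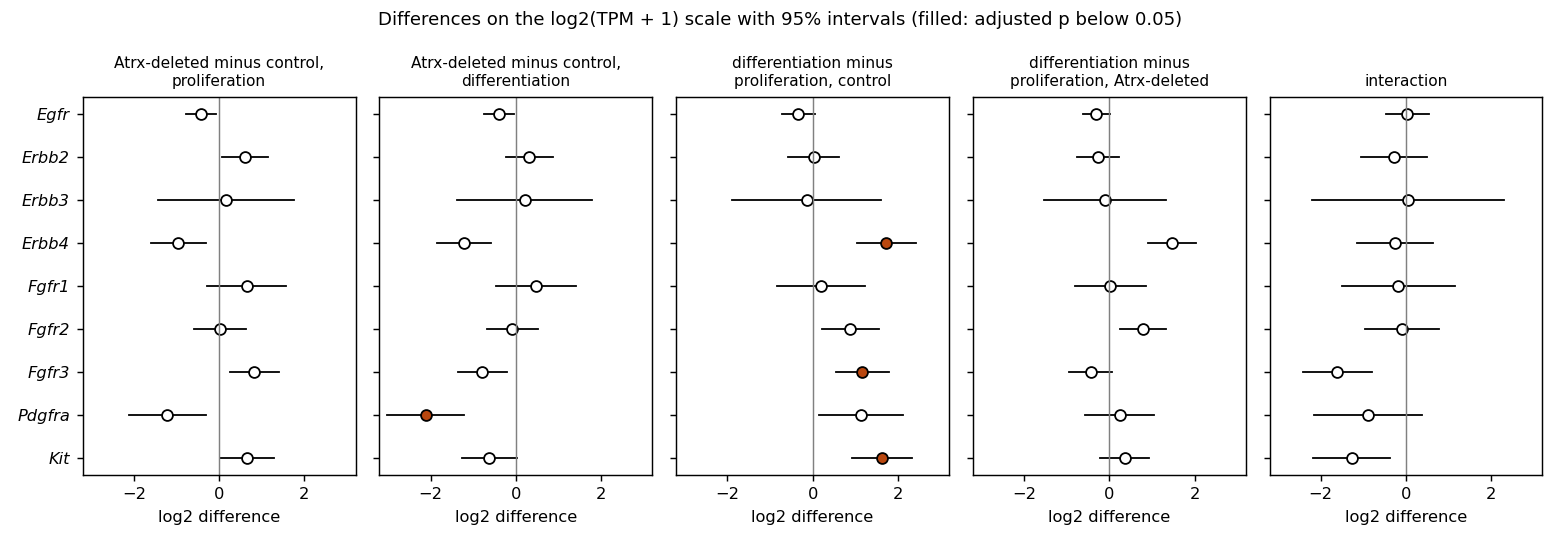
Log2 difference with 95% confidence interval (limma) of the 9 tested receptor genes, by comparison: genotype within each medium and medium within each genotype. The intervals are not adjusted for the number of genes. The Pdgfra interval in differentiation medium runs from -3.01 to -1.21. The Egfr intervals for genotype lie below 0 in both media, though Egfr was not called in either.

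The promoters of Erbb4, Fgfr3, Pdgfra and Kit are shown because these 4 genes were called in at least 1 comparison. Each is the 150 bases that end just before the more upstream of the RefSeq and GENCODE starts of transcription, printed 5′ to 3′ on the gene's strand from RefSeq sequence of build GRCm38.p6, with CG dinucleotides in capitals.
Erbb4, chr1:69108060-69108209, minus strand: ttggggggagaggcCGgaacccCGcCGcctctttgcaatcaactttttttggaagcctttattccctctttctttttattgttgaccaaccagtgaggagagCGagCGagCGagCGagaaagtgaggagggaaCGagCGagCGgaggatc
Fgfr3, chr5:33721524-33721673, plus strand: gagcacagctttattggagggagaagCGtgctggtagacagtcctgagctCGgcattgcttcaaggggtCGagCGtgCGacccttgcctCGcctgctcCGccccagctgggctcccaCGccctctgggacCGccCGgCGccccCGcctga
Pdgfra, chr5:75152101-75152250, plus strand: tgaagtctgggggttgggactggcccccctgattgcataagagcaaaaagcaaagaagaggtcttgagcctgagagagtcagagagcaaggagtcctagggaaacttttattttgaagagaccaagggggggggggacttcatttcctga
Kit, chr5:75574766-75574915, plus strand: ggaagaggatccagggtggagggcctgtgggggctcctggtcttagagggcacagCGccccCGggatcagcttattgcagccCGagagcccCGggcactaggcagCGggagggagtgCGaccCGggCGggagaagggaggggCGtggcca

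These stretches hold 10 CG dinucleotides for Erbb4, 12 for Fgfr3, 0 for Pdgfra and 9 for Kit. Pdgfrb was left out of the search for RefSeq promoter windows. Such windows were matched for 7 of the 10 genes, and none for Erbb3 or Fgfr1. These windows count from the RefSeq start, the more upstream one where there are several. For Fgfr3 and Kit that start (positions 33721724 and 75574987) lies downstream of the end of the stretch printed above. Over the 250 bases upstream of the RefSeq start, the CG count was 19 for Fgfr3, 17 for Kit, 16 for Erbb2, 12 for Erbb4, 11 for Egfr, 4 for Pdgfra and 2 for Fgfr2, where the median of 32851 windows was 6 and the quartiles were 2 and 16. Pdgfra and Fgfr2 were thus below the median and the other 5 above it. The letters GGGCGG, searched on both strands, occurred 3 times in the window of Fgfr3 and 1 time each in those of Egfr and Kit, and 32.7% of all windows hold them. The letters CAGCTG occurred 1 time, for Fgfr3 (13% of windows), and AACAAT 1 time, for Erbb4 (9.42% of windows). TATAAA was not found in any of the 7 windows and is in 12.4% of all windows. These matches describe the sequence and are not measured binding sites.

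Egfr (ENSMUSG00000020122, chr11:16752203-16918158, GRCm38, plus strand) encodes the receptor for EGF, which was in the proliferation medium. Its levels were 343 and 357 TPM in control proliferation and 262 and 291 TPM in control differentiation. They were 284, 232 and 266 TPM in proliferation medium and 189, 208 and 235 TPM in differentiation medium in the Atrx-deleted lines. The groups did not overlap between genotypes in either medium, and the Atrx-deleted mean was 74.6% of the control mean in proliferation medium and 76.1% in differentiation medium. The log2 difference was -0.43 (SE 0.159, adjusted p = 0.275) and -0.40 (SE 0.159, adjusted p = 0.199), so neither passed the threshold. The change of medium was -0.34 in the control lines and -0.31 in the Atrx-deleted lines (adjusted p = 0.328 and 0.351), which differed by 0.03 (interaction, adjusted p = 0.992).

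Erbb4 (ENSMUSG00000062209, chr1:68032186-69108059, minus strand) encodes a neuregulin receptor with its own kinase activity; its promoter is the first of the 4 printed above. The control lines had 23.8 and 37.7 TPM in proliferation medium and 99.7 and 104 TPM in differentiation medium. The Atrx-deleted lines had 17.5, 12.6 and 15.4 TPM in proliferation medium and 62.9, 37.2 and 34.9 TPM in differentiation medium. Every Atrx-deleted library was below both control libraries of the same medium, and within each genotype every differentiation library was above every proliferation library. Erbb4 rose by 1.73 (SE 0.313, adjusted p = 0.0166) with differentiation medium in the control lines. The rise of 1.47 in the Atrx-deleted lines had an SE of 0.256 and an adjusted p of 0.0755. Without the library labelled mA19d#7 differentiation it was 1.63 and passed (adjusted p = 0.0266). By line the differences were 2.02 and 1.44 in the controls and 1.79, 1.5 and 1.14 in mA16d#4, mA19d#4 and mA19d#7. The interaction was -0.25 (95% interval -1.15 to 0.64, adjusted p = 0.941), and -0.10 without that library. Between genotypes the difference was -0.95 (SE 0.286, adjusted p = 0.188) in proliferation medium and -1.21 (SE 0.286, adjusted p = 0.0529) in differentiation medium, just outside the threshold; it passed without mA16d#4 differentiation, at -1.47 (adjusted p = 0.0212). The call in the control lines was lost without control proliferation replicate 1 (adjusted p = 0.200) or without either control differentiation library (0.125 and 0.112 for replicates 1 and 2), each of which leaves 1 library in a group that is assumed to vary like the others.

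Erbb2 (ENSMUSG00000062312, chr11:98412470-98437716, plus strand) encodes the family member with no known ligand, which acts as a partner of the others. It was at 15.9 and 20.0 TPM in control proliferation and 16.1 and 20.4 TPM in control differentiation. The Atrx-deleted lines had 29.5, 34.2 and 20.8 TPM in proliferation medium and 23.2, 23.0 and 22.4 TPM in differentiation medium. They were above the controls in both media without overlap, in differentiation medium by a narrow margin. The difference was 0.60 (SE 0.245, adjusted p = 0.319) and 0.32 (adjusted p = 0.497), neither past the threshold. In the control lines the medium moved it by 0.02. Erbb3 (ENSMUSG00000018166, chr10:128567523-128589652, minus strand) was at 3.77 and 0.141 TPM in control proliferation and 0.0126 and 3.44 TPM in control differentiation, so the control lines disagreed with each other in both media and in opposite ways. The Atrx-deleted lines ranged from 0.783 to 2.64 TPM. No difference of Erbb3 passed the threshold, with adjusted p from 0.908 to 0.962 in the genotype and medium comparisons. The genotype difference in differentiation medium was 0.20, and 0.43 without the library labelled mA19d#7 differentiation. The interaction was 0.04, and 0.26 without that library.

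Fgfr3 (ENSMUSG00000054252, chr5:33721674-33737068, plus strand), an FGF receptor found in astrocytes and their precursors, was the receptor gene whose medium response ran in opposite directions. The control lines rose from 69.6 and 104 TPM in proliferation medium to 197 and 189 TPM in differentiation medium. The Atrx-deleted lines had 177, 151 and 129 TPM in proliferation medium and 157, 89.5 and 97.9 TPM in differentiation medium. By line the difference was 1.49 and 0.85 in the controls and -0.17, -0.75 and -0.40 in mA16d#4, mA19d#4 and mA19d#7. This pattern, higher in both control lines and lower in all Atrx-deleted lines, was shown by 1.89% of all tested genes. The interaction was -1.61 (SE 0.366, 95% interval -2.42 to -0.80), and its unadjusted p of 0.0013 became 0.331 after adjustment, so the difference in response was not called. In the control lines the rise was 1.17 (SE 0.284, adjusted p = 0.0464), and in the Atrx-deleted lines the difference was -0.44 (adjusted p = 0.412). Relative to the controls, Atrx-deleted lines were at 175% of the control mean in proliferation medium (log2 difference 0.82, SE 0.259, adjusted p = 0.209) and at 59.5% in differentiation medium (-0.79, SE 0.259, adjusted p = 0.128). The latter passed without mA16d#4 differentiation (-1.03, adjusted p = 0.0466). The rise in the control lines lies close to the threshold and was lost without any 1 of the 4 control libraries (adjusted p = 0.359 and 0.0812 without proliferation replicates 1 and 2, 0.238 and 0.198 without differentiation replicates 1 and 2) or without mA16d#4, mA19d#4 or mA19d#7 proliferation (0.0539, 0.0756 and 0.0631). It was also lost with no filter on low values (0.105) and without the mean-variance trend (0.0857). Astrocyte markers summed to 2083 to 2834 TPM in control proliferation and 10110 to 11010 TPM in control differentiation. Of the 10 markers 4 rose there, as did 1.95% of all tested genes. The sums were 2877 to 3909 and 3986 to 7450 TPM in the Atrx-deleted lines. There 0 were called with the medium, as were only 0.083% of all tested genes. The median difference of the list with the medium was 1.03 in the control lines, with 7 of 10 positive. In the Atrx-deleted lines it was 0.93, with 8 of 10 positive. Between genotypes in differentiation medium 2 of the 10 were called, beside 2.89% of all tested genes: Apoe (-2.44, adjusted p = 0.0372) and Slc4a4 (-2.40, adjusted p = 0.00496). Both had less transcript in Atrx-deleted than in control lines. The list as a whole was split there, with 5 positive and 5 negative differences and a median of -0.62. The part of these markers in the Fgfr3 values was not tested. In bulk samples, fewer cells of a type and less RNA per cell cannot be told apart.

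**Figure D4:**
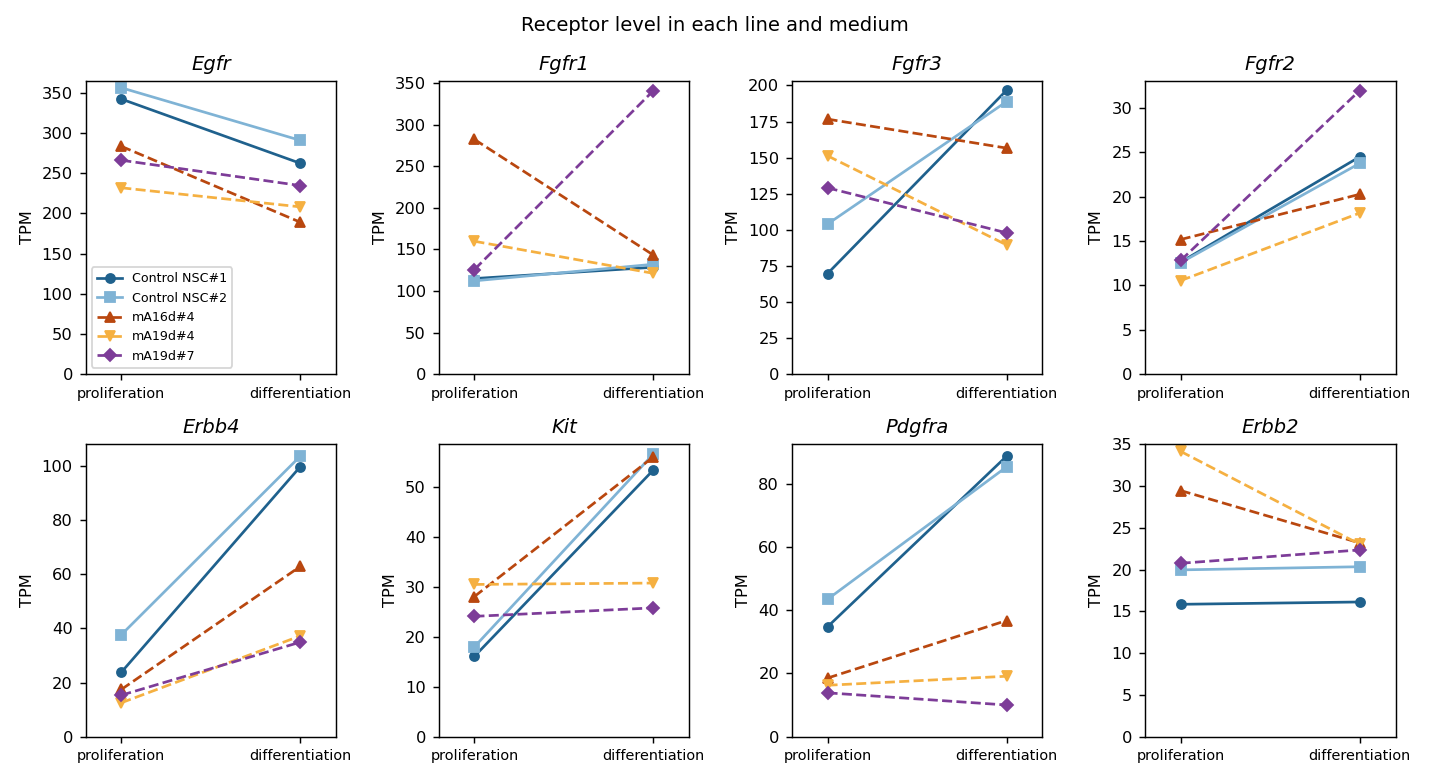
Level of receptor genes in proliferation and differentiation medium, in TPM, with 1 line per cell line, by genotype. For Fgfr3 both control lines go up and all 3 Atrx-deleted lines go down, and for Fgfr1 the Atrx-deleted lines cross.

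Fgfr1 (ENSMUSG00000031565, chr8:25513654-25575718, plus strand), the main FGF receptor of neural stem cells, was at 115 and 112 TPM in control proliferation and 129 and 132.2 TPM in control differentiation. The Atrx-deleted lines had 282, 160 and 126 TPM in proliferation medium and 143, 121 and 341 TPM in differentiation medium. The highest values were those of mA16d#4 in proliferation medium and of the library labelled mA19d#7 in differentiation medium, and the profile of the latter was closest to that of the former. By line the response to the medium was -0.98, -0.40 and 1.43 in mA16d#4, mA19d#4 and mA19d#7, against 0.16 and 0.23 in the controls. No difference of Fgfr1 passed the threshold, and the Atrx-deleted response of 0.02 turned to -0.44 without the library labelled mA19d#7 differentiation. The genotype difference in differentiation medium was 0.47 with it and 0.01 without it. The interaction was -0.18 with it and -0.63 without it, called in neither case. Fgfr2 (ENSMUSG00000030849, chr7, minus strand), whose product binds different FGFs depending on its splice form, was at 12.6 and 12.5 TPM in control proliferation and 24.5 and 23.7 TPM in control differentiation. The Atrx-deleted values were 15.2, 10.5 and 12.8 TPM and 20.3, 18.1 and 31.9 TPM. Differentiation libraries were above proliferation libraries without overlap in both genotypes, as were 29.6% of all tested genes in the controls and 8.65% in the Atrx-deleted lines. The difference was 0.89 in the controls (SE 0.30, adjusted p = 0.125) and 0.79 in the Atrx-deleted lines (SE 0.245, adjusted p = 0.191); the former was called without the library labelled mA19d#7 differentiation (adjusted p = 0.0465). Between genotypes it was 0.01 and -0.08, with adjusted p of 0.993 and 0.906. Without that library the latter was -0.32, and the Fgfr2 interaction was -0.33 in place of -0.09. Neither was called.

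Pdgfra (ENSMUSG00000029231, chr5:75152292-75198215, plus strand) encodes the receptor for PDGF-A, among others, and was the only receptor gene called between genotypes. The control lines had 34.8 and 43.4 TPM in proliferation medium and 88.6 and 85.3 TPM in differentiation medium. The Atrx-deleted lines had 18.6, 16.3 and 13.9 TPM in proliferation medium and 36.7, 19.1 and 10.05 TPM in differentiation medium. Every Atrx-deleted library was below both control libraries in each medium, and the Atrx-deleted mean was 41.5% of the control mean in proliferation medium and 25.3% in differentiation medium. The log2 difference in differentiation medium was -2.11 (SE 0.405, 95% interval -3.01 to -1.21, adjusted p = 0.0271). That SE is pooled over all groups, while the SD on the log2 scale was 0.886 in Atrx-deleted and 0.039 in control differentiation. In proliferation medium the difference was -1.22 (SE 0.405, 95% interval -2.12 to -0.32, adjusted p = 0.232). With differentiation medium the controls differed by 1.33 and 0.96, and mA16d#4, mA19d#4 and mA19d#7 by 0.95, 0.22 and -0.43. The mean response was 1.14 (adjusted p = 0.180) and 0.25 (adjusted p = 0.797), and the interaction was -0.90 (adjusted p = 0.804). Without the library labelled mA19d#7 differentiation the Atrx-deleted response was 0.69 (adjusted p = 0.180) and the interaction -0.46 (adjusted p = 0.690). Without this library, the lowest of the 10, the genotype difference was -1.67 and was still called, and the response of the control lines was called too (adjusted p = 0.0395). The genotype call was lost without control proliferation replicate 1 or 2 (adjusted p = 0.0529 and 0.0535), control differentiation replicate 1 or 2 (0.240 and 0.143) or mA19d#4 differentiation (0.0523), with the difference between -2.14 and -2.09 in each case, as well as with no filter on low values (0.0750) or with only the compared groups in the fit (0.181).

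Pdgfra is itself a marker of oligodendrocyte precursors. Of the list of 10 precursor markers, 0 were called between genotypes; 8 of them were lower and 2 higher in the Atrx-deleted lines in differentiation medium, with a median of -0.51. Their summed level was 7078 to 7722 TPM in control differentiation and 3105 to 8700 TPM in Atrx-deleted differentiation, ranges that overlap. Cspg4, which encodes the NG2 proteoglycan of the same cells, is 1 of the 10 and was not called there (adjusted p = 0.222, limma). The part of these markers in the Pdgfra values was not tested.

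Kit (ENSMUSG00000005672, chr5:75574916-75656722, plus strand), the receptor for stem cell factor, was at 16.1 and 18.0 TPM in control proliferation and 53.5 and 56.7 TPM in control differentiation. The Atrx-deleted lines had 28.1, 30.5 and 24.2 TPM in proliferation medium and 56.1, 30.8 and 25.8 TPM in differentiation medium. mA16d#4 thus reached the control level in differentiation medium, and the other two Atrx-deleted lines lay near their own proliferation levels. Kit rose by 1.64 in the controls (SE 0.317, adjusted p = 0.0208), with line values of 1.67 and 1.60. Atrx-deleted line values were 0.97, 0.01 and 0.09, and their mean of 0.36 had an adjusted p of 0.563. The interaction was -1.28 (SE 0.409, 95% interval -2.18 to -0.37, adjusted p = 0.519). Between genotypes the difference was 0.66 in proliferation medium (adjusted p = 0.355) and -0.62 in differentiation medium (adjusted p = 0.263). Without the library labelled mA19d#7 differentiation the latter was -0.40 and the Atrx-deleted response 0.58 (adjusted p = 0.402 and 0.210). The call in the controls was lost without control proliferation replicate 1 or 2 (adjusted p = 0.207 and 0.0930) or control differentiation replicate 1 or 2 (0.139 and 0.133), and with no filter on low values (0.0544). Melanocytes and mast cells also express Kit. Of 8 markers of these cells 6 were in the table, with a summed level of 19.2 to 21.0 TPM in control proliferation, 15.4 to 26.5 TPM in control differentiation, 14.7 to 37.6 TPM in Atrx-deleted proliferation and 8.37 to 15.4 TPM in Atrx-deleted differentiation. Tyr, Mlana and Fcer1a were below 1 TPM in every library, and 3 were tested. Of these Pmel, a melanosome protein gene, was lower in Atrx-deleted than in control differentiation (-2.06, adjusted p = 0.0235), as were 1.33% of all tested genes. The part of these markers in the Kit values was not tested.

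Pdgfra, Kit and Kdr lie side by side on chromosome 5, a segment that is amplified in some human gliomas. Pdgfra and Kit are separated by 376701 bp. In differentiation medium, where Pdgfra was lower in the Atrx-deleted lines, the difference was -0.32 for Chic2 upstream of it, -0.03 for Fip1l1, -0.62 for Kit and -0.11 for Kdr, and none of these neighbours was called. Lnx1 was at -1.65 (adjusted p = 0.156) and at -1.24 in proliferation medium (adjusted p = 0.390). Over the 10 libraries, the profiles of receptor genes most alike were those of Erbb4 and Pdgfra (Pearson r = 0.789) and of Fgfr3 and Kit (r = 0.775). These correlations describe libraries that share lines and medium. The genes named next had the highest r of all genes with a mean of at least 5 TPM. A high r is thus built into the choice, and these r values were not tested. By this measure the genes most like Pdgfra were Ncam2 (r = 0.970), Myh6 (r = 0.970) and Alcam (r = 0.963). Those most like Erbb4 were Pex13 (r = 0.978), Cadm2 (r = 0.974) and Slc25a33 (r = 0.969). Adcyap1r1 (r = 0.960), Dtx4 and Plxnb1 were most like Fgfr3, and Pvrl1 (r = 0.974), Faf1 and Psmb3 most like Kit. Dopey2 led for Egfr (r = 0.975), Samd5 for Fgfr2 (r = 0.976), Aup1 for Erbb2 (r = 0.956), Polr2g for Erbb3 (r = 0.851) and Fads3 for Fgfr1 (r = 0.957).

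The ligands of these receptors were measured in the same libraries. Of 11 EGF family ligands 9 were tested. With differentiation medium 1 rose in the control lines and 0 fell, beside 1.95% and 2.56% of all tested genes. That gene was Hbegf, heparin-binding EGF-like growth factor, which binds EGFR and ERBB4. Its level was 12.2 and 22.9 TPM in control proliferation and 125 and 147 TPM in control differentiation, a rise of 2.95 (SE 0.722, adjusted p = 0.0484). Atrx-deleted lines had Hbegf at 12.4, 23.9 and 19.6 TPM in proliferation medium and 44.8, 42.5 and 257 TPM in differentiation medium, the last value being that of the library labelled mA19d#7. The difference was 2.07 with it (adjusted p = 0.165) and 1.23 without it (adjusted p = 0.0729). Of 18 FGF ligands 8 were tested, and 1 rose in the control lines, Fgf2, which encodes basic FGF itself. Fgf2 was at 1.78 and 1.77 TPM with basic FGF in the medium and at 28.2 and 10.4 TPM without it (2.72, SE 0.589, adjusted p = 0.0317). The Atrx-deleted means were 2.20 ± 1.32 and 6.09 ± 2.72 TPM (1.16, adjusted p = 0.303). All 5 PDGF and stem cell factor ligands were tested, and 0 were called in any comparison by limma. The Kit ligand gene Kitl was at 109 and 93.9 TPM in control proliferation and 26.7 and 29.9 TPM in control differentiation, lower where Kit was higher (-1.80, SE 0.895, adjusted p = 0.306). Among the Atrx-deleted lines Kitl spread widely, with 112, 24.97 and 38.5 TPM in proliferation medium and 58.4, 19.3 and 203 TPM in differentiation medium. No ligand was called between genotypes in either medium by limma with all libraries. Without the library labelled mA19d#7 differentiation, Hbegf was called lower in the Atrx-deleted lines in differentiation medium (-1.61, adjusted p = 0.0293, against -0.77 and 0.551 with it). Without it the Kitl difference there was 0.25 in place of 1.10, and the Atrx-deleted Kitl response -0.49 in place of 0.36; neither was called.

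Downstream of the receptors, 33 adaptor and cascade genes were all tested. Between genotypes 1 was higher and 1 was lower than in the controls in differentiation medium, where 2.89% of all tested genes were called. The first was Gab1, a docking protein for the EGF receptor and others, at 134 and 136 TPM in the controls and 248, 302 and 299 TPM in the Atrx-deleted lines (1.06, SE 0.149, adjusted p = 0.0102). In proliferation medium its difference was 0.80 (adjusted p = 0.0521, and 0.0287 without the library labelled mA19d#7 differentiation). The other was Shc2, which was below 3 TPM in every group mean. With differentiation medium 2 fell in the controls, Shc1, an adaptor that links receptors to RAS (-1.16, adjusted p = 0.0441), and Stat3 (-1.38, adjusted p = 0.036). Among all tested genes 2.56% were called lower there. Medians over the list lay between -0.09 and -0.01 in the genotype and medium comparisons.

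A few feedback inhibitors and targets of the cascade were called in the control lines. Of 24 tested negative regulators 2 fell there and 0 rose, where 2.56% of all tested genes were called lower. Of the 24 differences 19 were negative (median -0.33), beside 50.8% of all tested genes. Spry4, a Sprouty inhibitor of the RAS-ERK cascade that the cascade itself induces, was at 40.6 and 34.0 TPM in control proliferation and 11.4 and 12.6 TPM in control differentiation (-1.55, SE 0.237, adjusted p = 0.00969). Fgfrl1, an FGF receptor family member that lacks the kinase, was at 508 and 404 TPM and at 198 and 170 TPM (-1.30, SE 0.231, adjusted p = 0.0153). In the Atrx-deleted lines the differences were -0.53 for Spry4 and -0.15 for Fgfrl1 (adjusted p = 0.247 and 0.754), the latter -0.26 without the library labelled mA19d#7 differentiation. Without that library Spry4 was called higher in the Atrx-deleted than in the control lines in differentiation medium (0.93, adjusted p = 0.0346, against 0.80 and 0.0793 with it). The interaction was 1.02 and 1.15 (adjusted p = 0.495 and 0.419), so a difference in response was not called for either. Of 18 targets 1 fell in the controls, the ETS factor gene Etv5, from 600 and 446 TPM to 181 and 193 TPM (-1.46, SE 0.325, adjusted p = 0.035). The Etv5 difference in the Atrx-deleted lines was -0.57 (adjusted p = 0.354), and -0.37 without the same library. Between genotypes 1 negative regulator was called, in proliferation medium, where 0.46% of all tested genes were called. Ptpn1, a tyrosine phosphatase that acts on several receptors, had a mean of 32.7 ± 4.01 TPM in control and 89.8 ± 12.1 TPM in Atrx-deleted proliferation (1.43, SE 0.201, adjusted p = 0.0222). In differentiation medium its difference was 0.85 (adjusted p = 0.0518), and it was called without the library labelled mA19d#7 differentiation (0.96, adjusted p = 0.0297).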

How the data were processed

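RNA-seq libraries had been prepared with a TruSeq RNA kit from RNeasy-extracted RNA, per the labels' protocols, and aligned with STAR to mm10, per the submitters' processing notes; no version, annotation or TPM tool is named there. The authors deposited 1 table of log2 TPM values for 21101 genes in 10 libraries. Test on the file: all libraries hold the same sorted values (quantile normalisation), with a lowest value of -8 held by 1213 genes per library and a sum of 997524 TPM, so depth and its precision are unknown.

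After return to TPM, values were transformed to log2(TPM + 1). The limma model (3.58.1, in R 4.3.3) had 4 group means over all 10 libraries, a mean-variance trend and 6 residual degrees of freedom, and was run on genes at 1 TPM or more in at least 2 libraries (15660), with Benjamini-Hochberg adjustment at 0.05. The 5 comparisons were those of genotype in each medium, medium in each genotype and their interaction. All 10 receptor genes are described. From the lists, genes called and the main ligands are named, as are Cspg4 and some markers below 1 TPM in every library. The fit was tested on simulated data. Same-numbered libraries are the same line in both media, so that line pairs them; the correlation of paired deviations was 0.0624 in the control lines and 0.159, 0.404 and -0.194 in mA16d#4, mA19d#4 and mA19d#7. Alternatives were other pseudocounts, filters, scalings, fits and left-out libraries. The receptor genes and all lists were chosen with earlier results of these data known. Gene positions are from GENCODE M21 (GRCm38).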

Additional observations from a re-analysis of the deposited data

Results flagged for a closer look

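Fgfr3 was singled out because its response to differentiation medium was positive in both control lines and negative in all 3 Atrx-deleted lines. The Atrx-deleted response minus the control response was -1.61 on the log2 scale, and the test of this difference (limma interaction) gave an adjusted p of 0.331.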

How the results depend on the processing

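The number of receptor genes called between genotypes in proliferation medium, 0 as reported, was 2 with array weights by group (Erbb4 and Pdgfra) and 0 without any 1 library or line. In differentiation medium, 1 as reported, it was 0 with no filter and with only the groups compared, and 2 (Erbb4 joining Pdgfra) with a filter of 5 TPM, with robust estimation and with median-of-ratios factors; leaving out libraries or lines gave 0 to 3. For the medium in the control lines, 3 as reported, it was 1 with no filter and 5 with array weights or with only the groups compared; leaving out libraries or lines gave 0 to 5. In the Atrx-deleted lines, 0 as reported, leave-one-out gave 0 to 1. The interaction gave 0 throughout and could not be refitted on fewer groups. With the line as a fixed or random replicate block, 3 receptor genes were called in the control lines and 0 in the Atrx-deleted lines, and no other call changed; the fixed block cannot be estimated for genotype. Added after seeing the data, the fixed replicate block without the library labelled mA19d#7 differentiation gave 5 and 1, with Erbb3 at 0.10 and Fgfr1 at -0.69 (Atrx-deleted response) and the Egfr interaction at -0.0315. Counts over all genes moved more: with only the groups compared, 452 became 2 and 706 became 2080, and with array weights 72 became 672 and 706 became 2984.

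Of 1210 log2 differences recomputed, 1107 kept their direction and their side of the threshold and 50 changed sign, in 14 of 45 gene results, most of them near 0 or of Erbb3. The Fgfr1 response of the Atrx-deleted lines was -0.0015 with median-of-ratios factors. Leaving out libraries or lines gave the ranges that follow. Genotype in proliferation medium: Erbb3 -0.864 to 1.2 and Fgfr2 -0.107 to 0.137. Genotype in differentiation medium: Erbb3 -0.86 to 1.27 and Fgfr2 -0.316 to 0.0758. Control response: Erbb2 -0.13 to 0.18 and Erbb3 -2.24 to 1.96. Atrx-deleted response: Erbb3 -0.42 to 0.13, Fgfr1 -0.69 to 0.52 and Pdgfra -0.20 to 0.69. Interaction: Egfr -0.0501 to 0.17, Erbb3 -2.06 to 2.14, Erbb4 -0.574 to 0.0651, Fgfr1 -0.88 to 0.32 and Fgfr2 -0.33 to 0.11. The cause of these shifts was not tested. Read depth is unknown and limits genes near 1 TPM, Erbb3 among them.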

Other observations

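Of 36 other receptor tyrosine kinase genes tested, a few changed with genotype or medium. Between genotypes 0.46% of all tested genes were called in proliferation and 2.89% in differentiation medium. With the medium in the control lines 4.51% were. Ntrk2, the receptor for BDNF, had a mean of 131.7 ± 40.8 TPM (SD, n = 2) in control proliferation and 359 ± 26.4 TPM (n = 2) in control differentiation (log2 difference 1.47, SE 0.277, adjusted p = 0.0192, limma). In Atrx-deleted differentiation it was at 131 ± 35.3 TPM (n = 3), lower than the controls by a difference of -1.49 (SE 0.253, adjusted p = 0.0184). Axl, the receptor for Gas6, was also lower there, at 36.2 ± 13.1 TPM (n = 3) against 99.4 ± 10.1 TPM (n = 2) in the controls (-1.49, SE 0.275, adjusted p = 0.0242). Ephb1, an ephrin receptor, rose in the control lines with differentiation medium (1.40, adjusted p = 0.0291) and was higher in Atrx-deleted than in control proliferation (1.54, adjusted p = 0.0473). The list's median difference between genotypes in differentiation medium was -0.34, beside 0.02 over all tested genes.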
